A study of Homo sapiens with 4 samples.

Results

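The BCL2 family of apoptosis genes was examined through 10 of its members. They were chosen by gene symbol from known roles and not by a measured value, though earlier results of these data were known. All 10 were among the 19775 genes of the deposited table: BCL2, BCL2L1 and MCL1, which protect cells; BAX and BAK1, which execute death; and BBC3, PMAIP1, BCL2L11, BIK and BID, which trigger it. The cells were H1, a human embryonic stem cell line of wild-type genotype, in E8, a defined culture medium whose additives include insulin, FGF2 and TGFβ. The treated group (2 samples) received 1 µM XMD892, an inhibitor of the mitogen-activated protein kinase ERK5, for 12 h in E8; the group in E8 alone (2 samples, 12 h) was not analysed here. By its title the series is concerned with ERK5 and autocrine growth signals in the choice of cell fate. The values below are transcript levels after treatment and how far the 2 libraries of that group agree. They give no estimate of an effect of XMD892, because no untreated column was matched to a sample. Separate cultures are not stated in the labels, so the spread of the libraries may be technical.

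Mitochondrial apoptosis is set by binding among proteins of this family. Anti-apoptotic members hold BAX and BAK1 in check, and BH3-only proteins, named for the short helix that they insert into a groove of their partners, displace or activate them. Released BAX and BAK1 then open the outer mitochondrial membrane, cytochrome c escapes, and caspases are activated. Human embryonic stem cells are known for a low threshold to this pathway, and in some lines BAX is held in an active form at the Golgi. Several members are controlled mainly as proteins (MCL1 by rapid turnover, BID by cleavage, BAX and BAK1 by shape), so transcript levels do not measure the threshold itself.

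The BH3 stretch is what the members share, and its coding sequence is shown because it carries the binding that defines the family. A pattern of codons was searched in 1 transcript per gene of GENCODE release 29: leucine, then arginine, lysine or alanine, any residue, then alanine, valine, isoleucine, methionine or phenylalanine, then glycine or alanine, and aspartate. The pattern was written from the family's known sequences, so its presence is no finding; each of the 10 members held exactly 1 match, against 1.74% of 14447 protein-coding genes of the table with any match. In these stretches of 15 codons, 5′ to 3′, capitals mark the leucine codon and the paired codons that end in aspartate.
MCL1: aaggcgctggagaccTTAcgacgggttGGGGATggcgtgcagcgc
BCL2L1: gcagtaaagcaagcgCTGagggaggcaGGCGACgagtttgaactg
BCL2: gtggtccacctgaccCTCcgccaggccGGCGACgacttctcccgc
BAX: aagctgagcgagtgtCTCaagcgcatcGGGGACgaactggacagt
BAK1: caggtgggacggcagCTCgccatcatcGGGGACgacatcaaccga
PMAIP1: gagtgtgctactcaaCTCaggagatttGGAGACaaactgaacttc
BID: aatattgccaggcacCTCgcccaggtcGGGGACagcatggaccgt
BCL2L11: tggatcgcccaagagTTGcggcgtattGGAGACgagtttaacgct
BBC3: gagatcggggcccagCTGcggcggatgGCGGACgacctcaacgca
BIK: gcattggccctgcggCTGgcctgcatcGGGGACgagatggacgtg

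A glycine codon preceded the aspartate in 9 members and an alanine codon in BBC3 alone. The aspartate codon was GAC in 9 members and GAT in MCL1. Leucine was written CTC in 5 members, CTG in 3, and TTA in MCL1 and TTG in BCL2L11. Over the 45 pairs of stretches, between 31.1% and 62.2% of bases were identical, with a median of 46.7%. The closest pairs, at 62.2%, were BAK1 with BID, BAK1 with BIK, and BBC3 with BCL2L11. The stretches were aligned on the search pattern, so part of this identity was set in advance. In all 10 members the stretch lay within 1 exon.

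Recovered reads on listed genes came to 20217648 in replicate 2 and 18528689 in replicate 1. Pluripotency markers were high: all 8 of the list used here reached 1 RPKM in both libraries, led by POU5F1, the gene of OCT4, at 1430 and 734 RPKM. RPKM values here are reads per kilobase of merged exon, scaled by each library's total of reads on listed genes. Of 25 marker names for other lineages and for fibroblasts, the table held 17. TBXT and T name the same gene, listed as T, which had no length and so no RPKM value. At 1 RPKM or more in each library were 4, COL1A2, THY1, TAGLN and VIM, all of the fibroblast list. The libraries differed in that list, whose summed level was 79.6 RPKM in replicate 2 and 127.7 RPKM in replicate 1, with 5 of 6 tested genes higher in replicate 1. The exception was THY1, which pluripotent cells also carry, at 64.2 RPKM in replicate 2 and 33.7 RPKM in replicate 1. The other 5 summed to 15.4 RPKM in replicate 2 and 94.0 RPKM in replicate 1, of which TAGLN alone gave 5.34 and 62.2 RPKM. THY1 was set aside after its direction was seen, so these sums are more uneven by choice. TAGLN, an actin-binding protein of contractile cells, was 10.8-fold higher in replicate 1 in normalized counts. Markers outside that list differed as well. In normalized counts POU5F1 was 2.09-fold and MIXL1 3.23-fold higher in replicate 2, and OTX2 was 3.75-fold higher in replicate 1. The remaining tested markers of those other lists differed by less than 2-fold. In bulk RNA, fewer cells of a type and less RNA per cell cannot be told apart.

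The treated cells carried all 10 transcripts, and the means spanned 134-fold, or 94.3-fold with the longest protein-coding transcript as the length. MCL1 was the most abundant member and BCL2, after which the family is named, the least. The mean levels, in falling order, were those of MCL1, PMAIP1, BAX, BAK1, BCL2L1, BID, BCL2L11, BBC3, BIK and BCL2. Of the 9 pairs of neighbours in this order, 7 had ranges over the libraries that did not overlap. The ranges of PMAIP1 and BAX overlapped, and BAX was the higher of them in replicate 1. Those of BCL2L11 and BBC3 overlapped too, although BCL2L11 was the higher in each library. The median member stood at 11.4 RPKM, against 4.17 RPKM over 14495 protein-coding genes, and 8 of the 10 members lay above that value. In both libraries 9 members reached 1 RPKM, the exception being BCL2, against 11471 of all 19262 genes with a length.

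**Figure D1:**
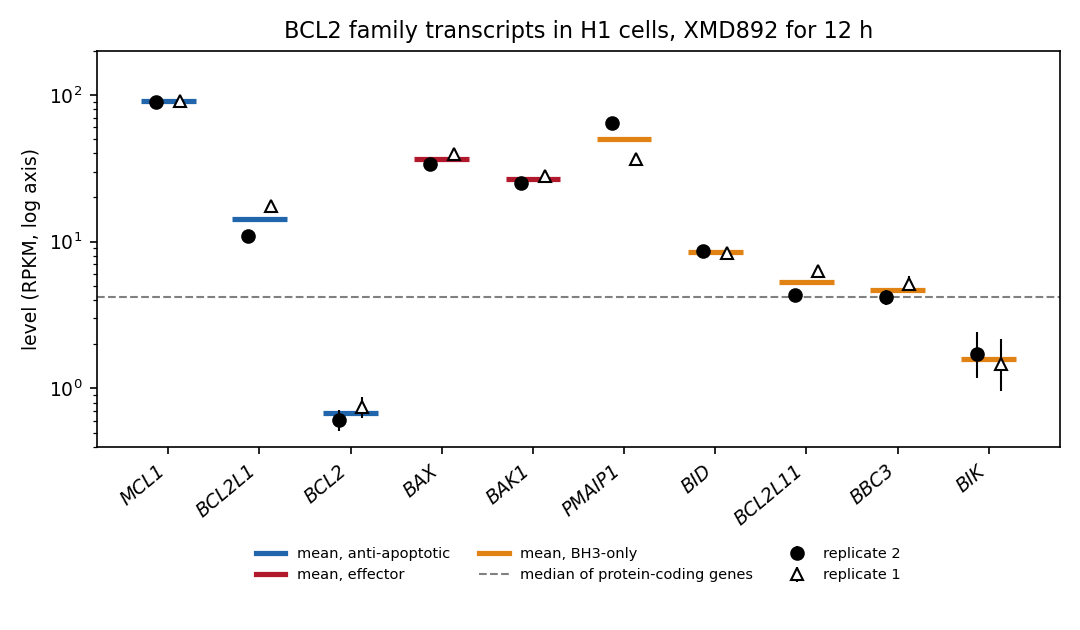
Level of each member (RPKM, log axis) in XMD892-treated H1 cells, with replicate 2 as filled circles, replicate 1 as open triangles, exact 95% Poisson counting intervals as bars (often smaller than the symbol) and the mean of both libraries as a coloured line by role; the dashed line is the protein-coding median of 4.17 RPKM. MCL1 lies at 90.5 RPKM and BCL2 at 0.676 RPKM, and the widest gap between the libraries is that of PMAIP1.

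The anti-apoptotic members differed far more among themselves than between the libraries. MCL1, a guardian that binds BAK1, PMAIP1 and BCL2L11, stood at 89.8 RPKM in replicate 2 and 91.1 RPKM in replicate 1, on 7934 and 7382 reads. That mean, 90.5 ± 0.967 RPKM (SD, n = 2), placed it at rank 375 of 19262 genes with a length. Its BH3 stretch lies at chr1:150578865-150578909 on the minus strand (hg38), in exon 1 of 3.

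BCL2L1 encodes BCL-XL, a guardian that holds BAX and BAK1 in check and binds BH3-only proteins. The gene sits in the part of 20q that is often gained in cultured human pluripotent cells. It stood at 11.0 RPKM in replicate 2 and 17.4 RPKM in replicate 1, on 737 and 1069 reads. Its mean was 14.2 ± 4.53 RPKM, and its stretch lies at chr20:31721922-31721966 on the minus strand, in exon 2 of 3. A short splice form of BCL2L1 promotes death, and counts per gene do not separate it from the long form.

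BCL2, the founding member and the main guardian in mature lymphocytes, stood at 0.610 RPKM in replicate 2 and 0.743 RPKM in replicate 1, on 145 and 162 reads. Its counting intervals were 0.514 to 0.717 RPKM and 0.633 to 0.867 RPKM, so the libraries were not separated at this depth. The mean of 0.676 ± 0.0944 RPKM lay at percentile 22.3 of protein-coding genes. Within each library MCL1 exceeded BCL2 by 147-fold and 123-fold per length, and BCL2L1 by 8.16-fold and 5.24-fold, in replicate 2 and replicate 1 in that order. The BCL2 stretch lies at chr18:63318349-63318393 on the minus strand, in exon 1 of 2.

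Both effector genes were well expressed, and close to each other with merged exon lengths. BAX stood at 33.6 RPKM in replicate 2 and 39.7 RPKM in replicate 1, on 1757 and 1905 reads, with a mean of 36.7 ± 4.35 RPKM. BAK1 stood at 25.3 RPKM in replicate 2 and 28.0 RPKM in replicate 1, on 1130 and 1146 reads, with a mean of 26.6 ± 1.91 RPKM. The ratio of BAX to BAK1 was 1.33 in replicate 2 and 1.42 in replicate 1. BAX was 55.1-fold and 53.5-fold above BCL2 per length in the same libraries. The BAX stretch lies at chr19:48955772-48955816 on the plus strand, in exon 3 of 6, and that of BAK1 at chr6:33575387-33575431 on the minus strand, in exon 4 of 6. BAK1 has the annotated pseudogenes BAK1P1 and BAK1P2, with which its reads could be shared.

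Among the BH3-only genes, which sense damage and stress, PMAIP1 was far ahead. PMAIP1 encodes NOXA, a small protein of 54 codons that binds MCL1 and directs it to degradation. It stood at 64.2 RPKM in replicate 2 and 36.7 RPKM in replicate 1, on 2899 and 1519 reads, with a mean of 50.4 ± 19.4 RPKM. The counting intervals, 61.8 to 66.5 RPKM and 34.9 to 38.6 RPKM, did not overlap. Per length it reached 0.715 of the MCL1 level in replicate 2 and 0.402 in replicate 1. Its stretch lies at chr18:59902658-59902702 on the plus strand, in exon 2 of 2.

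BID, which links death receptors to mitochondria once caspase-8 cleaves it, stood at 8.69 RPKM in replicate 2 and 8.35 RPKM in replicate 1, on 781 and 688 reads. BCL2L11 encodes BIM, a strong activator that FOXO3 induces and ERK1/2 phosphorylation destabilizes. It stood at 4.35 RPKM in replicate 2 and 6.28 RPKM in replicate 1, on 586 and 775 reads. BBC3 encodes PUMA, which binds every guardian. It stood at 4.18 RPKM in replicate 2 and 5.18 RPKM in replicate 1, on 269 and 305 reads. BIK, a BH3-only protein of the endoplasmic reticulum, stood at 1.71 RPKM in replicate 2 and 1.47 RPKM in replicate 1, on 33 and 26 reads. The ranges of BCL2L11 and BBC3 overlap, and those of BID and BIK lie apart from both.

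PMAIP1 exceeded BBC3 by 15.3-fold in replicate 2 and 7.09-fold in replicate 1, and BCL2L11 by 14.7-fold and 5.84-fold. The stretch of BID lies at chr22:17739415-17739459 on the minus strand, in exon 4 of 6, and that of BIK at chr22:43127701-43127745 on the plus strand, in exon 3 of 5. Those of BCL2L11 and BBC3 lie at chr2:111150088-111150132 on the plus strand, in exon 4 of 5, and at chr19:47226579-47226623 on the minus strand, in exon 3 of 4.

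Levels per length depend on which length is used. With the longest protein-coding transcript in place of merged exons, BAX came to 69.8 RPKM, BID to 15.2, BBC3 to 8.10 and BCL2 to 1.07 RPKM, each over 1.5 times the value above. MCL1 stayed the highest member and BCL2 the lowest, while BAX then stood above PMAIP1 and 2.63-fold above BAK1. BBC3 then stood above BCL2L11, which reverses the order that both libraries gave with merged exons.

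Summed over the members, the level was 243 RPKM in replicate 2 and 235 RPKM in replicate 1. The anti-apoptotic genes held 41.7% of it in replicate 2 and 46.5% in replicate 1, a mean of 44.1% ± 3.43 (SD, n = 2). The effectors held 24.2% and 28.8%, and the BH3-only genes 34.2% and 24.7%, in the same libraries. These shares rested on few genes: MCL1 alone was 36.9% and 38.8% of the sum, and PMAIP1 26.4% and 15.6%. Without MCL1 the anti-apoptotic share was 10.1%. The BH3-only share was the one that differed most between the libraries, and PMAIP1 supplied 77.2% of the BH3-only sum in replicate 2 and 63.3% in replicate 1.

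**Figure D2:**
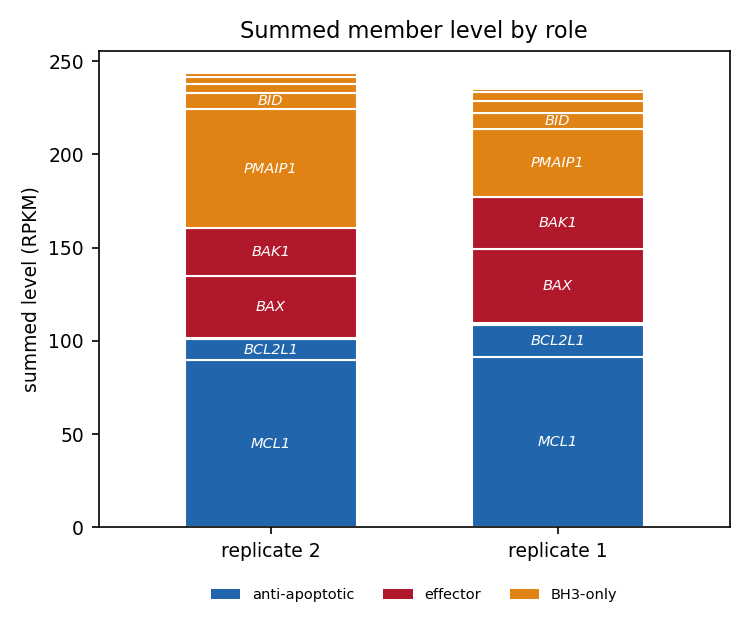
Stacked levels (RPKM, from 0) of the 10 members in each XMD892 library, coloured by role; members above 7 RPKM in both libraries are named. The total is 243 RPKM in replicate 2 and 235 RPKM in replicate 1, MCL1 is the largest block in both, and the PMAIP1 block is larger in replicate 2.

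The libraries were then compared gene by gene, as log2(normalized count + 1) in replicate 2 minus replicate 1, on the authors' size factors. There is 1 library on each side, so these differences carry no replicate check and no p-value; intervals are exact binomial and cover counting error only. All 10 members passed the minimum mean normalized count of 10. None differed by 2-fold or more, against 10.9% of the 16148 genes tested (4.76% higher in replicate 2 and 6.14% higher in replicate 1). At least 1.5-fold was reached by 1 member, PMAIP1, against 26.6%. A single gene is 10% of this list, so these counts do not set the members apart. Of the members 4 were higher in replicate 2, against 52.1% of all tested genes, and 6 in replicate 1, against 47.9%. The median absolute difference was 0.19 for the members and 0.32 for all tested genes. The counting interval excluded equal levels for 6 of 10 members, against 58.1% of all tested genes, which is near the background.

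PMAIP1 was 1.88-fold higher in replicate 2 (log2 0.91, interval 0.82 to 1.00), with 3059 and 1631 normalized counts in replicate 2 and replicate 1. Its absolute difference lay at percentile 86.8 of all tested genes. In the other direction BCL2L1 was 1.47-fold higher in replicate 1 (log2 -0.56, interval -0.70 to -0.42) and BCL2L11 1.35-fold higher there (log2 -0.43, interval -0.59 to -0.27). Between the libraries the fibroblast markers also differed, with 79.6 RPKM in replicate 2 and 127.7 RPKM in replicate 1. Without THY1, which went the other way, they came to 15.4 and 94.0 RPKM, mostly from TAGLN in replicate 1. POU5F1, MIXL1 and OTX2 differed by at least 2-fold too, and the part of any marker in these gaps was not tested.

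The other 7 members differed by less. BAX was 1.10-fold higher in replicate 1 (interval -0.24 to -0.047 on the log2 scale), and BID was 1.12-fold higher in replicate 2 (interval 0.0085 to 0.31). For BCL2, BAK1, BBC3 and BIK the interval on the authors' factors held equal levels. The BIK interval was wide, -0.47 to 1.12, on its few reads. MCL1 was 1.06-fold higher in replicate 2 (log2 0.079, interval 0.034 to 0.13), but the sign turned to -0.022 with total reads as the scale, which is also the scale of the RPKM values. That scale shifted the median of all tested genes to -0.078, against 0.0235 on the authors' factors. On it the gap was -0.146 for BAK1, -0.306 for BBC3 and 0.057 for BID. Intervals were not computed on that scale, so which members are separated can depend on the scale.

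**Figure D3:**
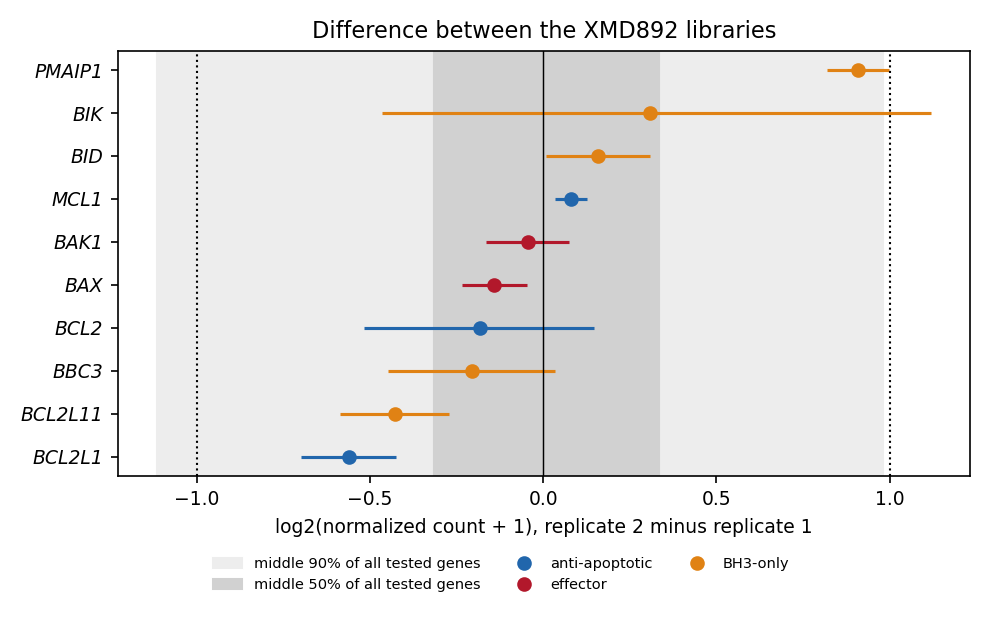
Difference of each member between the XMD892 libraries (replicate 2 minus replicate 1, log2 of normalized count + 1), with exact 95% binomial counting intervals; grey bands hold the middle 50% and 90% of the 16148 tested genes and dotted lines mark 2-fold. PMAIP1 at 0.91 and BCL2L1 at -0.56 are the outermost members, and no member passes a dotted line.

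Some annotated genes overlap members, and the strand setting of the counting is not given in the sources used here. ABALON, an antisense RNA, shares 1424 exonic bases with BCL2L1 and had 14 and 17 reads in replicate 2 and replicate 1, against 737 and 1069 for BCL2L1. MIR4435-2HG, a long noncoding RNA on the opposite strand, shares 727 exonic bases with BCL2L11 and had 14 and 74 reads, against 586 and 775. Reads from each pair cannot be told apart without strand. The highest partner count, that of MIR4435-2HG in replicate 1, was 9.55% of its member's. Partner counts do not bound the reads that a member gained or lost over shared bases. For BCL2L1 the shared 1424 bases are part of 3314 merged exon bases. The levels of BCL2L1 and BCL2L11 carry this limit, whose size was not measured.

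The members differed in features that bear on transcript stability. AU-rich elements in a 3′ untranslated region are known to shorten the life of many mRNAs, and their core is the pentamer ATTTA, counted here on the transcript strand with overlaps allowed. It occurred in 7 of 10 members, against 68.1% of 14447 protein-coding genes of any length, so its presence did not mark the family. BCL2 held 13 copies in 5279 bases, MCL1 held 10 in 2819 bases and PMAIP1 held 5 in 1553 bases. Per kilobase, MCL1 with 3.55 and PMAIP1 with 3.22 were the densest; the median of protein-coding genes was 1.55. BAX, BAK1 and BBC3 held none, and the BAX region was the shortest at 162 bases. A match is a description of the letters and not a measured element. The coding sequences had 51.7% to 76.5% G and C, with BBC3 the highest, against a median of 53.0%.

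The rest of the death machinery was described by 6 further lists of 64 names; 57 were listed and 54 passed the minimum. Of these 54, 3 differed by at least 2-fold between the libraries, all higher in replicate 2, which is 5.56% against the 10.9% of all tested genes given above. The 3 were BNIP3, BNIP3L and BMF. Counts of genes at 1 RPKM or more in each library, given below by list, stand against 11471 of all 19262 genes with a length.

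Of 17 other family names the table held 14, with a median of 6.40 RPKM, and 11 of them were at 1 RPKM or more in each library. BCL2L12, a divergent member, had the highest mean at 41.3 ± 2.81 RPKM, followed by the mitophagy receptors BNIP3 and BNIP3L at 34.2 ± 32.9 and 16.1 ± 10.5 RPKM. BNIP3 stood at 57.4 RPKM in replicate 2, above BCL2L12 there, and at 10.9 RPKM in replicate 1, a 5.64-fold difference in normalized counts. BNIP3L stood at 23.5 RPKM in replicate 2 and 8.63 RPKM in replicate 1, and differed 2.92-fold in normalized counts. BMF, a BH3-only gene of detached cells, was 2.06-fold higher in replicate 2 in normalized counts, at 8.85 RPKM against 4.60 RPKM in replicate 1. The third multidomain effector, BOK, stood at 15.1 ± 1.72 RPKM, below BAX and BAK1 in both libraries. The guardian BCL2L2 (BCL-W) stood at 5.50 ± 1.77 RPKM, between BCL2L1 and BCL2. BAD, a BH3-only protein inactivated by growth factor signalling, stood at 6.67 ± 1.26 RPKM, and HRK, known from neurons, at 0.978 ± 0.433 RPKM. The guardians BCL2A1 and BCL2L10 were not listed.

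**Figure D4:**
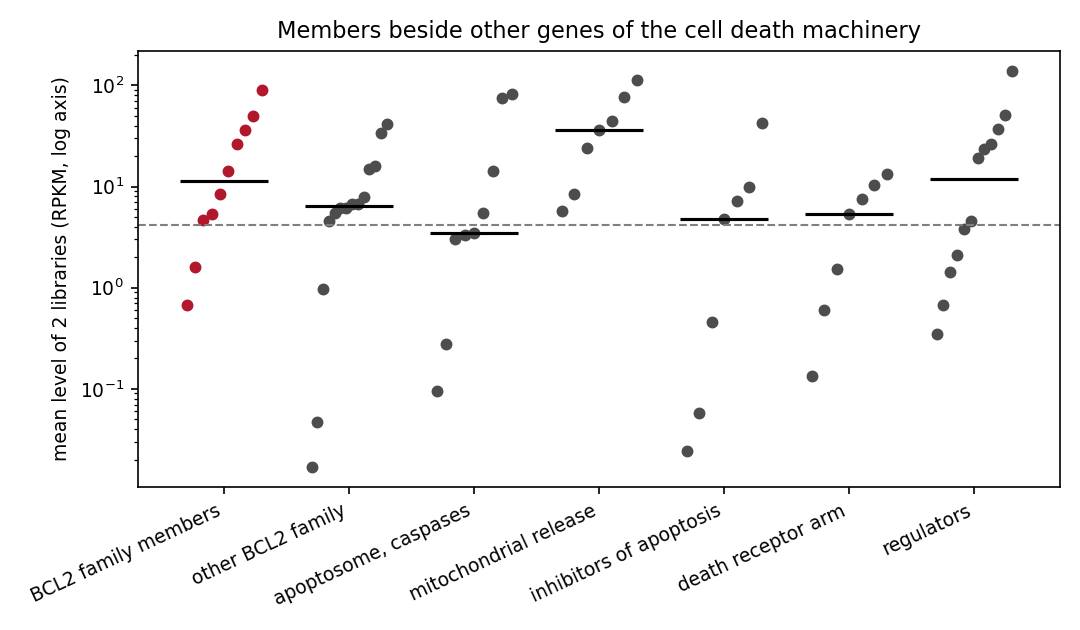
Mean level over both XMD892 libraries (RPKM, log axis) of each gene with a length in the member list and the 6 further lists; each point is 1 gene, black lines are list medians and the dashed line is the protein-coding median of 4.17 RPKM. The member median is 11.4 RPKM and that of the mitochondrial release list 36.4 RPKM, where all 7 plotted genes lie above the dashed line; each of the other lists holds genes on both sides of it.

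Downstream of the mitochondria, CYCS (cytochrome c) stood at 81.6 ± 6.65 RPKM, beside 90.5 RPKM for MCL1. CASP6, an effector caspase, stood at 14.4 ± 0.975 RPKM. The apoptosome scaffold APAF1 and its initiator CASP9 were lower, at 3.47 ± 0.275 and 3.33 ± 0.536 RPKM. CASP8 and CASP10, the initiators at death receptors, stood at 0.277 ± 0.0725 and 0.0947 ± 0.0134 RPKM, on 33 and 44 reads and on 16 and 12 reads in replicate 2 and replicate 1. The table held all 9 genes of this list; 7 were at 1 RPKM or more in each library, and 0 differed by 2-fold.

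The channels of the outer membrane were abundant, with VDAC1 at 113 ± 1.74, VDAC2, which retains BAK1 and BAX, at 76.8 ± 1.505 and VDAC3 at 44.6 ± 0.343 RPKM. MTCH2, a receptor for BID at that membrane, stood at 36.4 ± 0.278 RPKM. All 8 genes of this list were tested and 0 differed by 2-fold. Among the inhibitors of apoptosis, BIRC5 (survivin), which also acts in mitosis, was the highest at 42.8 ± 2.88 RPKM. BIRC2 stood at 9.99 ± 0.0686 and BIRC6 at 7.28 ± 0.878 RPKM, and XIAP, the direct caspase inhibitor, at 4.82 ± 1.15 RPKM. Of 8 names the table held 7, and 4 were at 1 RPKM or more in each library.

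In the death receptor arm, which joins the family through BID, the table held 7 of 9 names, and 5 were at 1 RPKM or more in each library. TNFRSF10B, a receptor for TRAIL, led at 13.2 ± 4.96 RPKM, ahead of TNFRSF1A at 10.4 ± 1.93 and the adaptor FADD at 7.53 ± 1.24 RPKM. FAS stood at 0.135 ± 0.0598 RPKM on 8 and 14 reads, and the ligands FASLG and TNFSF10 were not listed. Beside the BID level of 8.52 RPKM, the caspase that cleaves it, CASP8, stood at 0.277 RPKM, at percentile 14.3 of protein-coding genes. Both levels use merged exons, which for CASP8 span 7243 bases against 2930 in its longest protein-coding transcript. With the shorter length its level would be higher.

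Among regulators of the members, ATF4, a stress factor that induces PMAIP1, was the highest at 140.5 ± 1.43 RPKM. BAG6 followed at 50.9 ± 11.7 RPKM and MYC, which lowers the death threshold, at 36.8 ± 11.3 RPKM. Of the enzymes that set MCL1 protein life, the ligase HUWE1 stood at 26.3 ± 10.3 RPKM, the deubiquitinase USP9X at 19.4 ± 4.71 and the ligase subunit FBXW7 at 2.12 ± 0.141 RPKM. Of 13 names 12 were listed (the other, MULE, is a second name of HUWE1), and 0 differed by 2-fold. Of the 12 tested, 9 were higher in replicate 1, against 47.9% of all tested genes. The direction varied by list. Higher in replicate 2 were 9 of 12 tested genes of the other family list and 7 of 8 of mitochondrial release. So were 5 of 9 of the apoptosome and caspases, 3 of 6 inhibitors and 2 of 7 of the death receptor arm.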

How the data were processed

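Poly(A) RNA was sequenced as paired ends on an Illumina NextSeq, per the labels' protocols. The deposited table holds a normalized signal. The values show that the authors scaled each library's gene counts by a single factor, since 100% are whole multiples of 1 step per column within 0.01 reads. Trimmomatic 0.36, STAR, featureCounts 1.5.3, DESeq2 1.26.0 and hg38 are named, without roles, per the submitters' processing notes; annotation, strand setting and gene filter were not given in the sources used here. Of 9 columns, 7 were not used because their names match none of the 4 samples' labels. Among them 2 are named for E8 at 48 h, where the E8 samples' labels give 12 h, and 1 is a further XMD892 column at 12 h. Whether the E8 columns are the labelled E8 samples is unknown, so limma was not run on XMD892 against E8. Whole reads were recovered by dividing by the step (size factors 0.932 in replicate 1 and 0.948 in replicate 2). RPKM used merged exon lengths of GENCODE 29 (GRCh38, the assembly of hg38), matched by symbol; 19262 of 19775 genes had a length, DIABLO not among them. Gaps used log2(normalized count + 1) over 16148 genes with a mean of at least 10, which understates low genes. Intervals are 95% (exact binomial or Poisson) and cover counting error only. Tools were Python 3.11.15, scipy 1.17.1, Biopython 1.88 and, for TMM factors, edgeR 4.0.16; scripts were tested on simulated data. Sequences are of GENCODE transcripts, with the best APPRIS tag, then the longest coding part. Named genes are the 10 members and, from each list, the 3 highest, those with a 2-fold gap, and others of known role, chosen after their values were seen. Some items that this rule names are not reported here. Members and lists were chosen with earlier results of these data known.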

Additional observations from a re-analysis of the deposited data

How the results depend on the processing

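No paired analysis was possible because none of the columns of the E8 group was matched to a sample; for the same reason the XMD892 against E8 test was not run under any setting. The median member level of 11.4 RPKM became 16.6 RPKM with the longest protein-coding transcript as the length, and ran from 9.84 to 12.9 RPKM over the single libraries. The anti-apoptotic share of 44.1% became 39.2% with that length and 10.1% without the highest member, MCL1, and ran from 41.7% to 46.5% over the single libraries. The count of members with a 1.5-fold gap was 1 and became 2 with total reads as the scale, where BCL2L1 joined PMAIP1 at -0.66 on the log2 scale; it stayed at 1 with a pseudocount of 5, TMM factors, quantile normalization or a minimum of 50. The gap of MCL1 turned to -0.022 with total reads. Leaving out single libraries and the minimum of 50, which cannot move these values past their limits, 20 of 30 levels and 37 of 40 gaps of single members stayed within the spread between replicates or the counting interval. Depth limits BIK, on 33 and 26 reads in replicate 2 and replicate 1, most.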
